A study of Mus musculus with 12 samples.

Results

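A set of 10 transcription factor genes of the lung mesenchyme, out of 52550 genes counted, was followed in whole lungs of neonatal mice: the T-box genes Tbx2, Tbx3, Tbx4 and Tbx5, the forkhead gene Foxf1, the basic helix-loop-helix genes Tcf21 and Twist1, the homeobox genes Meox2 and Prrx1, and the LIM-only gene Lmo3. They were chosen by name, as regulators known from lung fibroblasts and their precursors, and Lmo3 was added because it showed a large fall after LPS in Adm+/- mice. The comparison of LPS with PBS in Adm+/- mice therefore had a part in the choice, and its values are given as a description, without a test. The study had 12 RNA sequencing libraries in 4 groups of 3, each library from the lung of 1 C57Bl/6J mouse at postnatal day 5. WT mice and mice heterozygous for a deletion of adrenomedullin in every cell (Adm+/-), a line moved from a 129/SvEv to a C57BL/6J background by repeated crossing, received LPS of Escherichia coli O55:B5 or PBS. Injections were intraperitoneal, at 6 mg/kg for LPS, once daily from postnatal day 3 to 5, and lung tissue was collected 6 h later than the last of these 3 injections. Mice are named by group and by the number of their library in the labels. PBS was given to WT mice 3, 4 and 5 and to Adm+/- mice 6, 7 and 8, and LPS to WT mice 9, 10 and 11 and to Adm+/- mice 1, 2 and 12, and values are listed in that order. Homozygous loss of Adm is lethal before birth, so the mutant groups kept 1 working allele.

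Mesenchymal cells lie around the airways, alveoli and vessels of the lung and become fibroblasts, myofibroblasts, smooth muscle cells and pericytes. Tbx2, Tbx3, Tbx4 and Tbx5 are DNA-binding factors of lung mesenchyme, and Tbx4 and Tbx5 act with the growth factor Fgf10 in branching of the lung bud, whereas Tbx2 and Tbx3 are mainly repressors that keep the mesenchyme dividing. Foxf1 is a target of hedgehog signals from the epithelium and is also used by lung endothelium. Tcf21 marks the lineage of lipid-storing fibroblasts. Twist1 and Prrx1 are known from limb and craniofacial mesenchyme and from activated fibroblasts, and Meox2 from mesoderm and from vessels. Lmo3 has LIM domains but does not bind DNA itself, and such proteins act through partners, among them the Ldb adaptors and basic helix-loop-helix factors.

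Values are in CPM, read counts scaled to the size of each library after normalisation by the trimmed mean of M values, and differences are log2 fold changes with their standard error (SE) and an adjusted p from edgeR's quasi-likelihood F-test across 15885 protein-coding genes. A gene was past the threshold at an adjusted p below 0.05 with a log2 fold change beyond 0.5 in either direction. Libraries held 22382535 to 38062873 counted reads. Libraries WT PBS 5 and Adm+/- PBS 6 stood apart, with protein-coding shares of 77.8% and 80.1% of reads where the other libraries had 84.3% to 87.6%, and with more reads on the RNA Gm26917. Adm itself was lower in Adm+/- than in WT mice by 0.50 in PBS and by 0.55 in LPS on the log2 scale, with overlapping libraries and adjusted p = 0.999 and 0.480. In bulk lung, fewer cells of a type and less RNA per cell cannot be told apart, and this holds for each gene below.

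In WT mice, Lmo3 and Meox2 fell after LPS. Lmo3 had enough reads for a test only through the PBS libraries, where it was high, and is given without one. Of the other members only Meox2 passed the threshold as lower, where 7.09% of all genes tested did. None of the 10 rose by edgeR, against 10.5% of all genes, and the only fitted value above 0, that of Foxf1, had an unadjusted p of 0.483. The median log2 fold change of the 10 was -0.32, and that of all genes tested was 0.01. All WT LPS libraries lay below all WT PBS libraries for 4 of the 10 (Tbx3, Tbx4, Lmo3 and Meox2), as they did for 17.9% of all genes. For Adm+/- mice, whose values had a part in the choice, the log2 fold change was below -0.5 for 5 of the 10 (Tbx2, Tcf21, Lmo3, Meox2 and Twist1), beside 17.7% of all genes, and nothing is read from this count. The median there was -0.53 for the 10 genes and -0.01 for all.

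**Figure D1:**
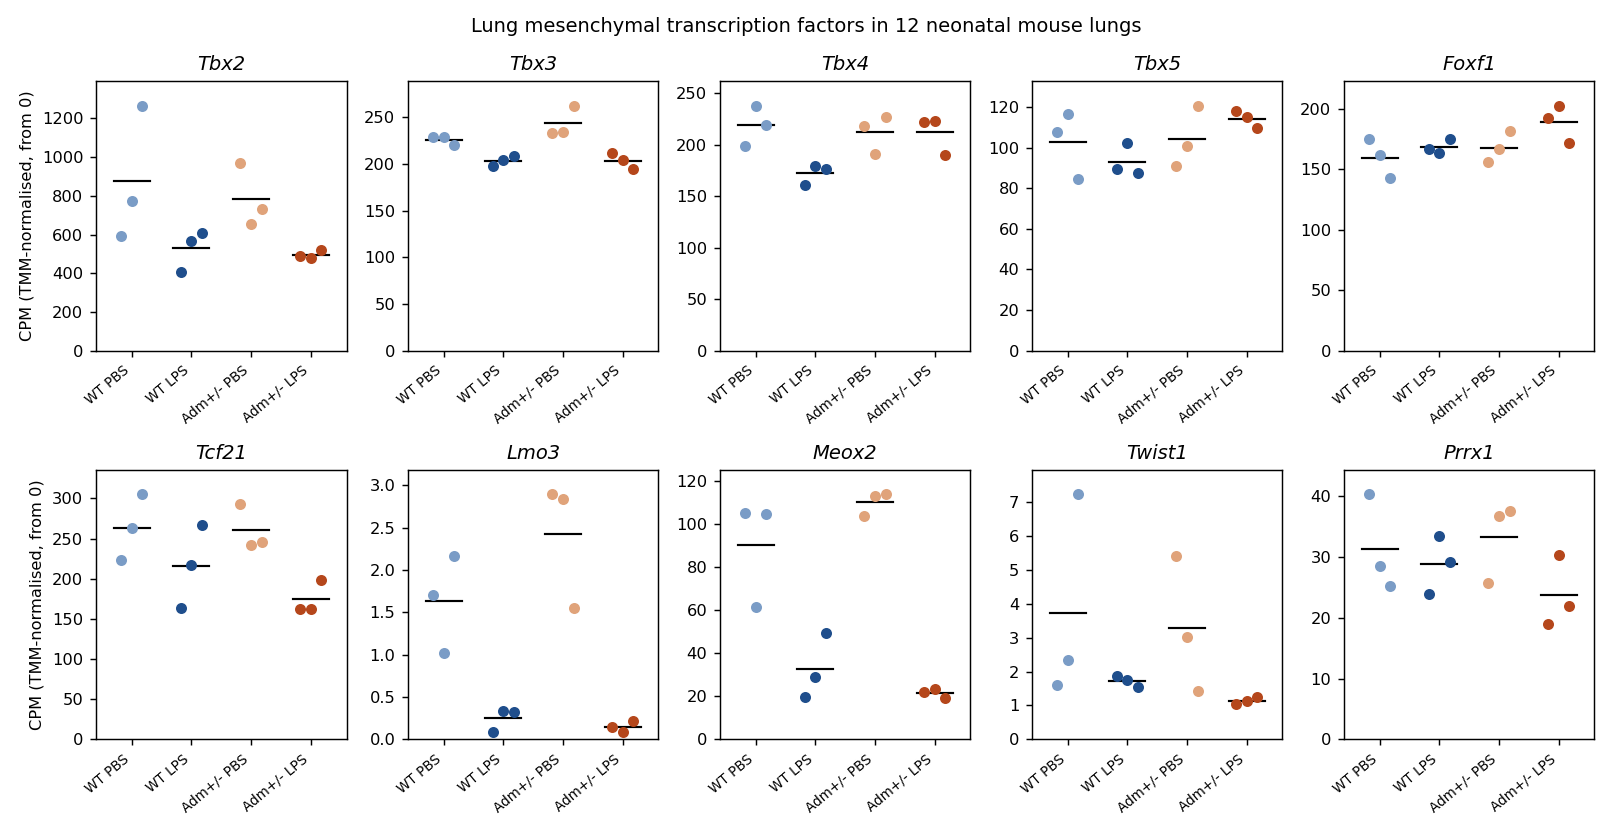
Normalised CPM (vertical axes, starting at 0) of the 10 mesenchymal transcription factors in the 12 libraries. Each point is 1 mouse, in the order of its replicate number, and the line is the mean of the group. Lmo3 and Meox2 are low in all 6 LPS libraries, and Tbx2 and Twist1 are highest in WT PBS 5 and Adm+/- PBS 6.

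The promoters of Lmo3 and Meox2 are shown because these genes passed the threshold in WT mice. The windows are the 250 bases before the RefSeq start of each gene on GRCm38.p6, chr6:138581969-138582218 on the minus strand for Lmo3 and chr12:37108290-37108539 on the plus strand for Meox2, written 5′ to 3′ with some of the motif matches in capitals. The capitals in Lmo3 mark the T-box half-site AGGTGTGA, and those in Meox2 mark the kappa B pattern, GGGA and TTCC with any 2 bases between them, and the TATA box TATAAA, both read on the opposite strand.
Lmo3: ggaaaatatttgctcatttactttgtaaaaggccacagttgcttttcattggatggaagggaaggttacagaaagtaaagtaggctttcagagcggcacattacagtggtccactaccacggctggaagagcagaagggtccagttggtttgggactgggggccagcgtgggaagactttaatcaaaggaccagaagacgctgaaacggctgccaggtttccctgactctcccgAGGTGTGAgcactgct
Meox2: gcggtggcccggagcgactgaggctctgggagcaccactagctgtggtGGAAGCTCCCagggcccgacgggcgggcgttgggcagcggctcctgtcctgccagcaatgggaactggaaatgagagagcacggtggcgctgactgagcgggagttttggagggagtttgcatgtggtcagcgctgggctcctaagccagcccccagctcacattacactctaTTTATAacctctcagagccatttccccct

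The T-box half-site of Lmo3 lay 16 to 9 bases before the start. This pattern stood in 1.28% of 32851 RefSeq promoter windows of 300 bases, searched on both strands, and in 1 of the 6 windows found for the 10 genes. The kappa B pattern of Meox2, 202 to 193 bases before the start, stood in 1.47% of all windows, and the TATA box, 29 to 24 bases before it, in 13.6%. E-boxes (CANNTG), the pattern read by basic helix-loop-helix factors, were left in lower case, as was the GC box GGGCGG of Meox2, 182 to 177 bases before the start (35.7% of all windows). Of the E-boxes, Lmo3 had 2 of them and Meox2 had 1, and 72.3% of all windows held at least 1. None of the 6 windows held the forkhead pattern GTAAACA (3.65% of all windows), the GLI pattern GACCACCCA (0.253%), the STAT pattern TTCCNGGAA (1.15%) or the cyclic AMP response element TGACGTCA (1.79%). A match of letters is a description of the sequence, and binding was not measured here.

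The level of the 10 genes spanned a wide range. Per kilobase of exon and averaged over the 12 libraries, Tbx2 stood first at 185 CPM, followed by Tcf21 at 97.3, Foxf1 at 70.9, Tbx4 at 59.9, Tbx3 at 33.1, Meox2 at 27.0 and Tbx5 at 22.1. Prrx1 at 2.65, Twist1 at 1.52 and Lmo3 at 0.217 CPM per kilobase were far lower. Of the tested genes with a known length, 99.4% had a lower level than Tbx2, and 4.94% had a lower level than Lmo3. Within WT PBS the order was kept apart from Meox2 and Tbx3, with 38.3 ± 10.6 and 34.1 ± 0.793 CPM per kilobase (SD, n = 3), which did not differ beyond their spread. The same was true of Foxf1 (66.1 ± 6.75) and Tbx4 (64.2 ± 5.80), and of Prrx1 (2.83 ± 0.714) and Twist1 (2.28 ± 1.88). In Adm+/- LPS Meox2 stood below Tbx5, at 9.15 ± 0.890 against 24.4 ± 0.924, while in WT LPS, at 13.8 ± 6.39 against 19.9 ± 1.69, they did not differ beyond their spread.

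Lmo3 lies on mm10 chromosome 6 from 138362918 to 138581968, on the minus strand. It had few reads in every lung. The 3 WT PBS libraries held 44, 21 and 35 counts, or 1.71, 1.02 and 2.16 CPM, and the 3 WT LPS libraries held 3, 8 and 8 counts, or 0.0925, 0.333 and 0.319 CPM. All WT LPS values lay below the lowest WT PBS value. The log2 fold change was -2.74 (SE 0.48), a 6.67-fold lower level. Lmo3 met the filter on low counts only through the PBS libraries, where it was high, and is given without a test. With WT PBS 5 and Adm+/- PBS 6 left out the log2 fold change was -2.51. It ranged from -3.02 to -2.30 with single libraries left out, and the Adm+/- libraries enter this comparison only through the shared fit.

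Among Adm+/- mice Lmo3 had 55, 84 and 39 counts in PBS (2.89, 2.84 and 1.55 CPM) and 4, 2 and 6 counts in LPS (0.150, 0.0838 and 0.214 CPM). The fitted difference was -3.95 on the log2 scale (SE 0.50), 15.5-fold lower, and this is the value that brought Lmo3 into the set. Lmo3 was the gene with the fewest counts among the 10, and the few counts in the 6 LPS libraries limit how well the size of the fall is known. The response of Adm+/- mice differed from that of WT mice by -1.22 on the log2 scale (SE 0.73). Adm+/- mice differed from WT mice by 0.58 (SE 0.39) in PBS and by -0.64 (SE 0.62) in LPS, with overlapping libraries in both. These values are given without a test, because the choice of Lmo3 used the Adm+/- libraries.

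Meox2 lies on chromosome 12 from 37108540 to 37179534, on the plus strand. Its WT PBS libraries had 105.0, 61.6 and 104.8 CPM, and its WT LPS libraries had 19.8, 28.8 and 49.3 CPM. The groups did not overlap, although WT PBS 4 and WT LPS 11 came close to each other. The log2 fold change was -1.47 (SE 0.29), 2.77-fold lower, with an edgeR adjusted p = 0.00508. Without WT PBS 5 and Adm+/- PBS 6 it was -1.36, at adjusted p = 0.0186. In a fit of the 6 WT libraries alone the log2 fold change was -1.47 again with an adjusted p of 0.0512, just short of the threshold.

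The Meox2 values of Adm+/- mice lay closer together. PBS libraries had 103.7, 113.2 and 113.9 CPM and LPS libraries 21.95, 23.5 and 19.3 CPM, a log2 difference of -2.35 (SE 0.30). The difference of this response from that of WT mice was -0.88 (SE 0.40), given like the Adm+/- response itself without a test. In LPS, Meox2 was 0.59 lower in Adm+/- than in WT mice on the log2 scale (SE 0.29, adjusted p = 0.383), with the lowest WT LPS library, at 19.8 CPM, inside the Adm+/- range.

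**Figure D2:**
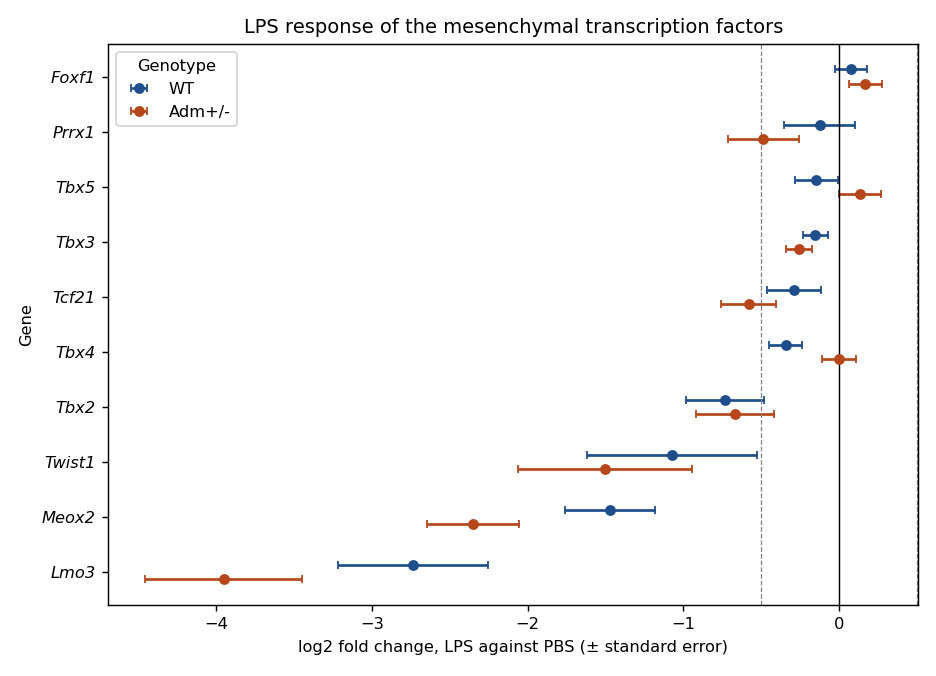
Log2 fold change of LPS against PBS (horizontal axis) for each of the 10 genes in WT and Adm+/- mice. Points are fitted values, bars are 1 standard error, and dashed lines mark 0.5 in either direction. Lmo3 and Meox2 lie farthest to the left in both genotypes, and Foxf1, Tbx3, Tbx4 and Tbx5 lie within 0.5 of no change.

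The T-box genes form 2 neighbouring pairs in the genome. Tbx2 (chromosome 11, 85832551 to 85841948) and Tbx4 (85886422 to 85916097) are 44.474 kb apart on the plus strand, and Tbx3 (chromosome 5, 119670669 to 119684724) and Tbx5 (119832668 to 119885219) are 147.944 kb apart on the plus strand. Tbx2 supplied 46.9% to 70.7% of the CPM of the 4 genes in each library. None of the 4 passed the threshold in WT mice by edgeR or limma-voom, 2 had an unadjusted p under 0.05 (Tbx2 and Tbx4) where 36.7% of all genes did, and Tbx2 passed by DESeq2 (adjusted p = 0.0247).

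Tbx2, a repressor that maintains division of lung mesenchyme, had 594.5, 775.2 and 1266 CPM in WT PBS and 409, 569 and 607 CPM in WT LPS. WT PBS 5 was far above all other libraries, and the lowest WT PBS value lay below the highest WT LPS value. The log2 fold change was -0.73 (SE 0.25), with an edgeR adjusted p = 0.0566. It was -0.38 without WT PBS 5 and Adm+/- PBS 6, at adjusted p = 0.123, and it passed the threshold without WT PBS 3 (-0.95, adjusted p = 0.0189) and without Adm+/- PBS 6 alone (-0.73, adjusted p = 0.0492). The Adm+/- values were 969.9, 656 and 730.2 CPM in PBS and 487, 478 and 518 CPM in LPS, which did not overlap. The fitted difference was -0.67, and -0.49 without the 2 libraries that stood apart.

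Tbx4, which acts with Fgf10 in the bud mesenchyme, had 198, 238 and 219 CPM in WT PBS and 161, 179 and 176 CPM in WT LPS. The groups did not overlap, but the log2 fold change of -0.34 (SE 0.11) was smaller than the size required, at an edgeR adjusted p = 0.0417. The Adm+/- libraries had 218, 191 and 227 CPM in PBS and 222, 223 and 190.2 CPM in LPS, at a log2 difference of -0.000455 for Tbx4. The difference between these responses was 0.34 (SE 0.15).

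Tbx3 and Tbx5 had the smallest fitted differences of the 4 in WT mice. Tbx3, like Tbx2 a repressor, had 229, 229 and 219.9 CPM in WT PBS and 197, 204 and 208 CPM in WT LPS, a narrow gap with a log2 fold change of -0.15 (SE 0.08, edgeR adjusted p = 0.197). Its Adm+/- values were 233, 235 and 263 CPM in PBS and 212, 204 and 195 CPM in LPS, also without overlap. Tbx5, known from heart and lung development, had 108, 116 and 84.6 CPM in WT PBS and 89.6, 102 and 87.6 CPM in WT LPS, which overlapped (log2 -0.15, SE 0.14, edgeR adjusted p = 0.460). The Adm+/- libraries of Tbx5 had 90.7, 100.5 and 120.7 CPM in PBS and 118, 115 and 109 CPM in LPS.

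Foxf1, the hedgehog target, lies on chromosome 8 from 121084386 to 121088144. Its WT PBS libraries had 175, 162 and 142 CPM and its WT LPS libraries 166, 163 and 175 CPM. The ranges overlapped, with a log2 fold change of 0.08 (SE 0.10) and an edgeR adjusted p = 0.625. Adm+/- mice had 156, 167 and 181 CPM in PBS and 192, 203 and 171 CPM in LPS, a log2 difference of 0.17 (SE 0.10). Foxf1 was the only one of the 10 genes with a fitted difference above 0 in both genotypes, and without WT PBS 5 and Adm+/- PBS 6 its WT value was -0.00327.

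Tcf21, a factor of the fibroblast lineage on chromosome 10 (22817281 to 22820174, minus strand), had 223, 263 and 305 CPM in WT PBS and 163, 217 and 267 CPM in WT LPS. The groups overlapped (log2 -0.29, SE 0.18, edgeR adjusted p = 0.254). Tcf21 in Adm+/- mice had 293, 242 and 246 CPM in PBS and 162, 162 and 198 CPM in LPS, without overlap, a log2 difference of -0.58 (SE 0.18). That difference lay between -0.68 and -0.50 with single libraries left out and was -0.49 without WT PBS 5 and Adm+/- PBS 6 together. The difference between the genotypes' responses was -0.29 (SE 0.25).

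Twist1 (chromosome 12, 33957671 to 33959829) was low and uneven, with 27 to 117 counts in a library. WT mice had 1.59, 2.33 and 7.23 CPM in PBS and 1.88, 1.75 and 1.55 CPM in LPS, so that WT PBS 5 stood far above the rest. The log2 fold change of -1.07 (SE 0.54) had an edgeR adjusted p = 0.176 and was -0.18 both without WT PBS 5 and without WT PBS 5 and Adm+/- PBS 6 together. Among Adm+/- mice Twist1 had 5.42, 3.01 and 1.43 CPM in PBS and 1.05, 1.13 and 1.25 CPM in LPS. The difference there was -1.50 (SE 0.56), and -0.96 without the libraries that stood apart.

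Prrx1 (chromosome 1, 163245119 to 163313710, minus strand), a homeobox factor of connective tissue, had 40.3, 28.5 and 25.3 CPM in WT PBS and 23.9, 33.5 and 29.1 CPM in WT LPS. These overlapped, with a log2 fold change of -0.12 (SE 0.23, edgeR adjusted p = 0.722). Those of Adm+/- mice were 25.6, 36.6 and 37.5 CPM in PBS and 19.0, 30.3 and 21.9 CPM in LPS, which overlapped too, at a log2 difference of -0.49 (SE 0.23).

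Adm+/- and WT mice were also compared within each treatment. In PBS, 0 of the 15885 genes tested differed between Adm+/- and WT mice by edgeR, DESeq2 or limma-voom (344 had an unadjusted p under 0.05, none of them among the 9 members other than Lmo3). Only Tbx3 had groups that did not overlap, higher in Adm+/- mice by 0.11 on the log2 scale (SE 0.08, adjusted p = 0.999), where 4.99% of all genes had such groups in either direction. In LPS, 2.05% of all genes passed the threshold by edgeR and none of the 9 members other than Lmo3 did by any of the 3 tools, and 1 of them, Tbx4, had an unadjusted p under 0.05 where 14.3% of all genes did.

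After LPS, Tbx4 and Tbx5 were higher in each Adm+/- library than in any WT library, and Twist1 was lower. Their log2 differences were 0.30 (SE 0.11) for Tbx4, 0.29 (SE 0.14) for Tbx5 and -0.60 (SE 0.57) for Twist1, with edgeR adjusted p = 0.203, 0.355 and 0.763. Such groups without overlap were seen for 24.6% of all genes tested, so 3 of 10 was near that share.

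Non-coding RNAs lie beside 8 of these genes. Of 15 such RNAs within 5 kb of the 10 genes or overlapping them, 10 had enough reads for a test in a fit of 23051 annotated genes. None passed the threshold in WT mice by edgeR, where 13.2% of all genes in that fit did, and 3 had an unadjusted p under 0.05 (Fendrr, 2610027K06Rik and Gm37644) where 30.9% of all genes in the fit did. No other tool was run on them.

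Fendrr, a long RNA that starts opposite Foxf1 with a gap of 1276 bases, had 226, 260.2 and 285 CPM in WT PBS and 167, 191 and 211 CPM in WT LPS. The groups did not overlap, and the log2 fold change was -0.47 (SE 0.15, edgeR adjusted p = 0.0573). Foxf1, its neighbour, did not share this direction. Adm+/- libraries of Fendrr had 269, 225 and 291 CPM in PBS and 214, 160 and 191 CPM in LPS, a log2 difference of -0.49.

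The RNA 2610027K06Rik runs away from Tbx2 on the other strand, 328 bases from it. It had 17.3, 20.04 and 26.5 CPM in WT PBS and 12.1, 14.1 and 16.1 CPM in WT LPS (log2 -0.63, SE 0.24, edgeR adjusted p = 0.0920). Like Tbx2, it was highest in WT PBS 5 and Adm+/- PBS 6, at 26.5 and 24.9 CPM. Tbx3os1, which overlaps the start of Tbx3 on the other strand, had 14.3 to 20.7 CPM in WT PBS and 17.6 to 19.3 CPM in WT LPS (log2 0.03).

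Gm10824 overlaps Tcf21 on the opposite strand, with 0 bases of shared exon. It had 7.81, 5.48 and 5.81 CPM in WT PBS and 4.01, 4.95 and 7.85 CPM in WT LPS, which overlapped (log2 -0.22, SE 0.23, edgeR adjusted p = 0.563). Those of Adm+/- mice were 7.05, 7.43 and 6.64 CPM in PBS and 2.84, 2.60 and 2.53 CPM in LPS, a log2 difference of -1.42. In LPS it was 1.08 lower in Adm+/- than in WT mice on the log2 scale (SE 0.24) at an adjusted p = 0.0509, and the difference between responses was -1.20 (SE 0.33, adjusted p = 0.387).

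Gm48617 runs in the direction of Meox2 and spans its start. It had 4.43, 2.09 and 1.73 CPM in WT PBS and 0.801, 1.29 and 3.58 CPM in WT LPS (log2 -0.59, SE 0.48, edgeR adjusted p = 0.432), and its Adm+/- values were 3.84, 5.88 and 6.16 CPM in PBS and 0.972, 0.796 and 0.784 CPM in LPS. Gm37644, a sequence inside Prrx1 on the same strand, had a log2 difference of -0.65 (SE 0.28, adjusted p = 0.141) in WT mice. Whether the counting used the strand is not given in the sources used here, so reads of a gene and of an overlapping partner may not be fully apart. The 3 RNAs opposite Lmo3 had 0 to 9 counts in a library.

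**Figure D3:**
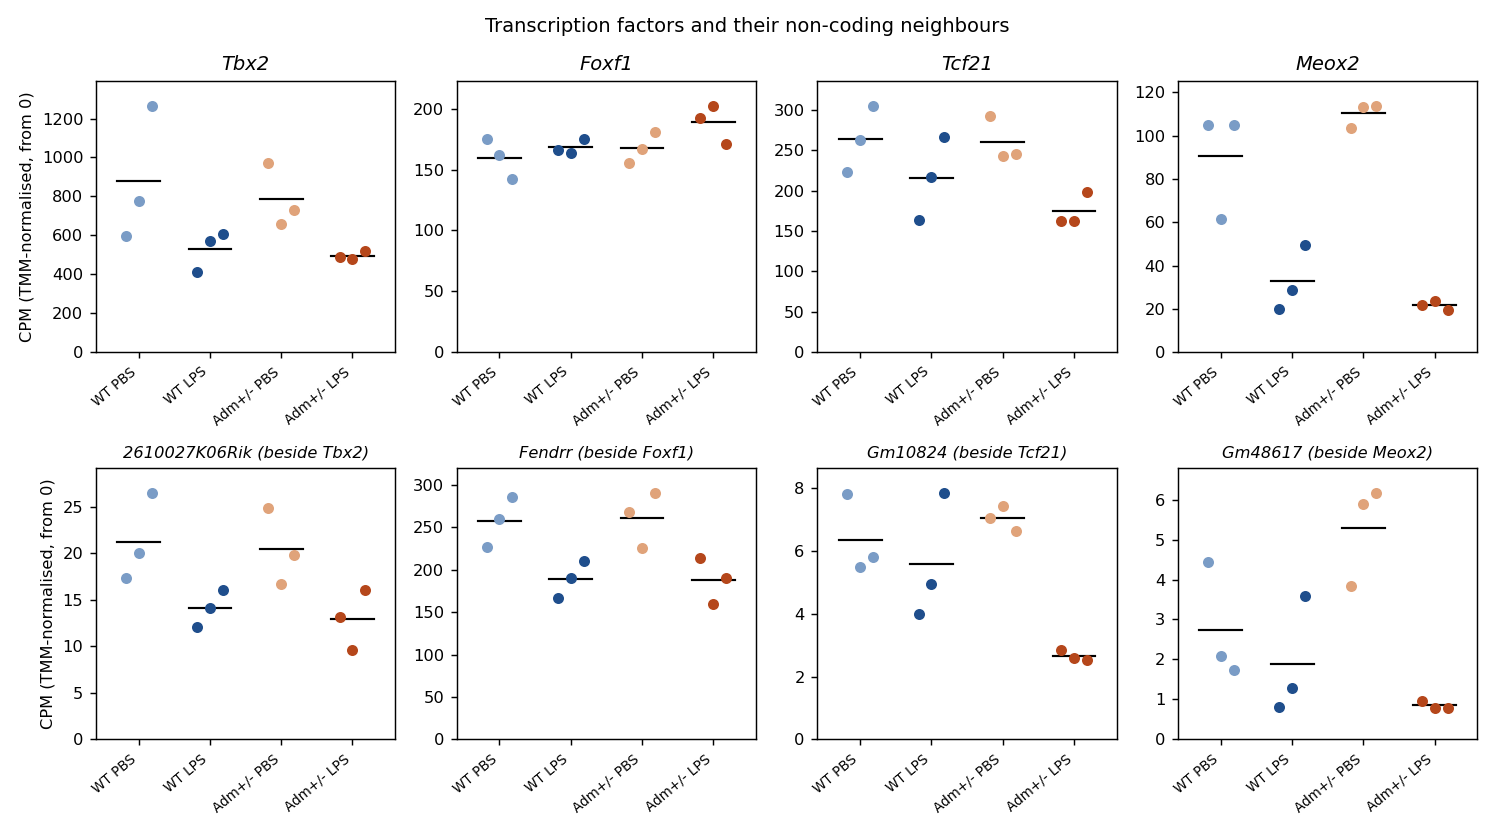
Normalised CPM (vertical axes, starting at 0) of 4 transcription factors in the top row and of the non-coding RNA beside each in the bottom row, by group. Points are mice and lines are group means. Fendrr is lower in the LPS libraries of both genotypes while Foxf1 is not, and in Adm+/- LPS the Gm10824 values lie between 2.53 and 2.84 CPM and the Gm48617 values between 0.784 and 0.972 CPM.

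Other transcription factors of mesenchyme moved in both directions in WT mice. Of 35 such genes, all tested, 3 rose (Osr1, Runx1 and Runx2), 5 fell (Foxf2, Gli2, Gli3, Prrx2 and Nr2f1) and 27 did not pass, against 10.5% and 7.09% of all genes. With single libraries left out 0 to 3 rose and 3 to 6 fell, and none of Osr1, Runx1 and Runx2 passed without WT LPS 9. Gli3 did not pass without WT PBS 3, WT PBS 4, WT LPS 9 or WT LPS 11, nor Prrx2 without WT LPS 9. All names in these counts, other than Foxf2, were picked after their values were seen. The median log2 fold change was -0.09. Foxf2, the closest relative of Foxf1, fell from 100.1 ± 21.6 to 42.1 ± 10.6 CPM (SD, n = 3) with a log2 fold change of -1.25 (SE 0.19, edgeR adjusted p = 0.00154), while Foxf1 did not pass. Of the most abundant members, Nfib had -0.39 (adjusted p = 0.0731), Klf4 0.41 (0.0320, below the size required) and Zeb2 -0.23 (0.245) on the log2 scale. In Adm+/- mice the median of the 35 was -0.23.

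Relatives of the 10 genes by sequence family numbered 22, of which 18 had enough reads. In WT mice Msc rose and Foxf2, Lmo2 and Prrx2 fell, where 10.5% and 7.09% of all genes did. Msc did not pass without WT PBS 3, WT PBS 4, WT LPS 10 or WT LPS 11, nor Prrx2 without WT LPS 9. Lmo2, of the LIM-only family of Lmo3 and used by blood and endothelial cells, fell from 54.6 ± 14.8 to 27.7 ± 2.31 CPM (log2 -0.97, SE 0.18, edgeR adjusted p = 0.00367). Lmo4 did not pass, with a log2 value of 0.23 (adjusted p = 0.159), and neither did the T-box relative Mga, with 0.21 (0.375). Tbx15, named after its values were seen, went from 0.244 ± 0.0486 to 5.93 ± 2.46 CPM in WT mice, and its Adm+/- means were 0.217 ± 0.0189 CPM with PBS and 0.446 ± 0.0488 CPM with LPS. It met the filter on low counts through WT LPS, the group where it was high, and is given without a test. The summed level of 14 skeletal muscle markers moved with it, at 958 to 2379 CPM in WT LPS against 19.6 to 59.9 CPM in the other groups. Myh4 was at 0 in WT PBS, and some of these markers met the filter on low counts only through WT LPS, so no count of calls is given for them. The part of skeletal muscle RNA in these values was not tested.

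Among 9 partners of Lmo3 and of the basic helix-loop-helix members, Tcf3 fell in WT mice from 185 ± 71.1 to 107 ± 12.97 CPM (log2 -0.78, SE 0.23, edgeR adjusted p = 0.0317) and the other 8 did not pass. Over all genes tested, 7.09% passed as lower. Without WT PBS 5 and Adm+/- PBS 6 the Tcf3 value was -0.43, under the size required, and Tcf3 did not pass without WT PBS 5, WT LPS 9 or WT LPS 11 alone. The adaptors that LIM-only proteins bind were Ldb1, with a log2 value of -0.25 (adjusted p = 0.188), and Ldb2, with 0.28 (0.443). Tcf4 had 0.15 (0.531) and Tcf12 had 0.04 (0.891). The inhibitors Id1 and Id3, the most abundant of the list per length, had -0.52 (0.306) and -0.74 (0.105).

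Growth factor signals around these genes were followed as well. Of 31 genes of the Fgf, Wnt, bone morphogenetic protein, hedgehog and platelet-derived growth factor pathways, 9 fell and 3 rose (Wnt2b, Sfrp1 and Frzb, named after their values were seen) in WT mice, and 19 did not pass, against the 7.09% and 10.5% of all genes. Like the other lists, this one was chosen with earlier results of these data known, and nothing is read from its counts. With single libraries left out 7 to 12 fell and 2 to 3 rose. Frzb did not pass without WT PBS 3, WT LPS 9 or WT LPS 10, nor Wnt2b without WT PBS 3 or WT LPS 11. The median log2 fold change was -0.35. Fgf10, the mesenchymal ligand that drives the epithelium to branch, fell from 33.3 ± 7.47 to 21.1 ± 4.49 CPM (log2 -0.66, SE 0.19, edgeR adjusted p = 0.0328). Its call was lost without WT PBS 3, WT PBS 5, WT LPS 9 or WT LPS 10. Wnt2, a mesenchymal Wnt ligand, fell from 72.5 ± 25.8 to 24.3 ± 4.88 CPM (log2 -1.58, SE 0.25, adjusted p = 0.00159). Rspo2, an enhancer of Wnt signals, fell from 12.5 ± 4.89 to 2.02 ± 1.47 CPM (log2 -2.65, SE 0.48, adjusted p = 0.00326).

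The most abundant genes of that list did not pass in WT mice. The receptor Pdgfrb had a log2 value of -0.40 (SE 0.13) with an edgeR adjusted p = 0.0430, below the size required. Spry1 and Etv5, which follow Fgf signals, had -0.25 (0.0849) and -0.42 (0.113), and the receptor Pdgfra had 0.02 (0.924). In Adm+/- mice the median of the 31 was -0.67, and Fgf10 had a log2 difference of -1.54, Wnt2 of -1.55 and Rspo2 of -4.60.

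**Figure D4:**
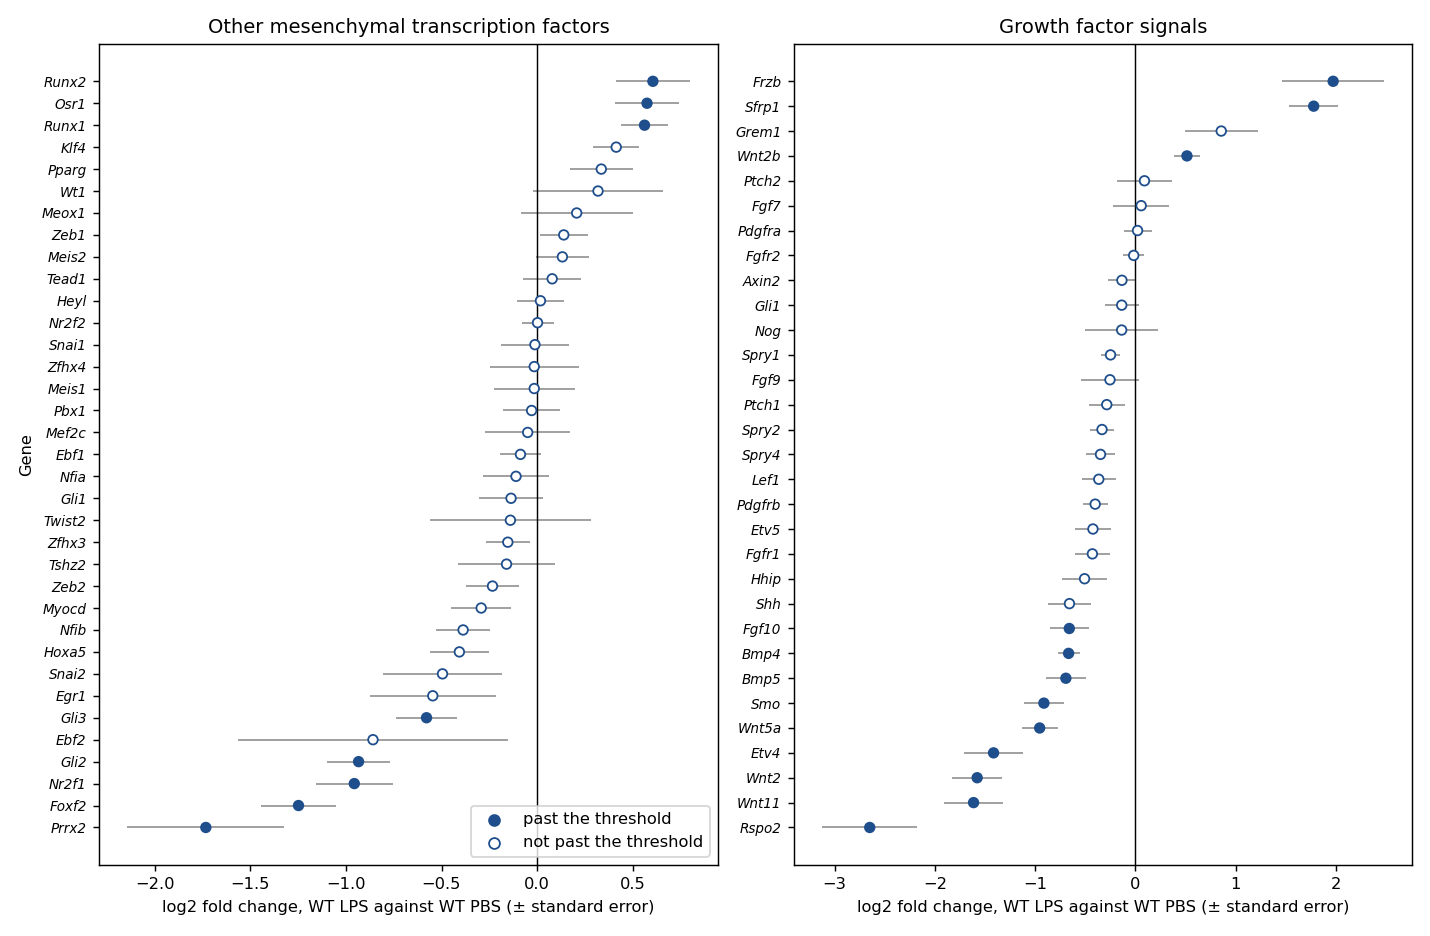
Log2 fold change of WT LPS against WT PBS (horizontal axes) of 35 other mesenchymal transcription factors on the left and of 31 growth factor pathway genes on the right, ordered by value. Bars are 1 standard error, and filled points passed the threshold. On the right 9 genes passed as lower and 3 as higher, and on the left 5 and 3.

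Of 6 genes known to be repressed by Tbx2 and Tbx3, 3 rose (Cdkn1a, Frzb and Il33) and 2 fell (Shisa3 and Wisp1) in WT mice, where 10.5% of all genes rose and 7.09% fell. Frzb and Shisa3 are named because of this count. Cdkn1a, an inhibitor of the cell cycle, rose from 35.6 ± 6.22 to 110.4 ± 33.5 CPM (log2 1.64, SE 0.22, edgeR adjusted p = 0.000641). Il33, an alarm cytokine, rose by 1.11 (SE 0.35, adjusted p = 0.0430) on the log2 scale, and Wisp1 fell by 1.19 (SE 0.19, adjusted p = 0.00161). With single libraries left out 1 to 3 of the 6 rose, and the call of Il33 was lost in 9 of those 12 fits. Cdkn1b had 0.18 (adjusted p = 0.244). The list moved in both directions.

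For Lmo3 and the 4 T-box genes, the genes with the most similar course over the 12 libraries were listed. Likeness was taken as the root mean square difference of log2 CPM, each gene centred on its mean, over 14600 protein-coding genes with a mean of at least 1 CPM. Nearest to Lmo3 were Ptpn5 (0.47), Slc27a6 (0.49), Shisa2 (0.56), St8sia2 (0.57) and Ndp (0.59), where the median of all genes was 1.56. Close to Tbx2 were Pkn3 (0.08), Acads (0.09), Tcf3 (0.09) and Exoc3l (0.09), with a median of 0.50. For Tbx3 they were Dcaf7, Drosha, Dennd5a, Vps8 and Depdc5 (0.04 to 0.05, median 0.29), for Tbx4 Daam2, Npnt, Farp1, Dlc1 and Ganab (0.08 to 0.09, median 0.32), and for Tbx5 Cdh5, Nav1, Noc3l and Agk. All genes share the depth and composition of the same libraries, and these are descriptions of the 12 mice.

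The levels of cell type markers were set beside these changes. The summed CPM of 14 fibroblast markers was 19174, 19699 and 47189 in WT PBS and 13387 to 17877 in WT LPS, and 18675 to 31486 in Adm+/- PBS and 14742 to 16512 in Adm+/- LPS. WT PBS 5 and Adm+/- PBS 6, the libraries with the most Tbx2, Tcf21 and Twist1 in their groups, had the highest sums. These sums were mostly Col1a1, Col1a2 and Col3a1, and the other 11 markers summed to 4589 and 4739 CPM in WT PBS 4 and 3, to 4440.2 CPM in WT PBS 5 and to 3702 to 3889 CPM in WT LPS. Of the 14 markers, 3 passed as higher (Dcn, Lum and Inmt) and 1 as lower (Gucy1a3) in WT mice, beside 10.5% and 7.09% of all genes, while 10 had a fitted value below 0 and the median log2 fold change was -0.39. With single libraries left out 1 to 3 were higher and 1 to 4 lower: Dcn and Lum did not pass without WT LPS 9, nor Lum without WT PBS 4 or WT PBS 5, and the 3 collagens passed as lower without WT PBS 3. Alveolar myofibroblast markers summed to 1520.1 to 1936 CPM in WT PBS and 1413 to 1511 in WT LPS, with 4 of 10 lower (Lgr6, Wnt5a, P2ry14 and Fgf18) beside 7.09% of all genes and 2 of 10 without WT LPS 9, and pericyte markers to 1165 to 1627 and 983 to 1012 CPM, with 2 of 10 lower (Cox4i2 and Notch3). Without WT PBS 5 and Adm+/- PBS 6 neither Cox4i2 nor Notch3 passed, at -0.46 and -0.37, while 1 of the 10, Gucy1b3, did. With single libraries left out 0 to 5 of the pericyte markers were lower. Smooth muscle markers summed to 2018 to 2578 CPM in WT PBS and 1478 to 2176 CPM in WT LPS, which overlapped. Of these 9 markers 1 was lower (Mylk), and their median was -0.12. Endothelial markers summed to 3357 to 3999 CPM in WT PBS and 2963 to 3029 CPM in WT LPS, with 3 of 12 lower (Kdr, Tie1 and Sox17). Of these, Tie1 had -0.77, and -0.50 without WT PBS 5 and Adm+/- PBS 6. Neutrophil markers rose from 59.5 to 185 CPM in WT PBS to 1698 to 2965 CPM in WT LPS, with 9 of 10 higher beside 10.5% of all genes. Squamous epithelium markers summed to 38.3 to 3455 CPM in WT LPS and to 8.31 to 54.0 CPM in the other groups. Cartilage markers summed to 209.9 CPM in WT PBS 5 and to 23.1 to 69.3 CPM in the other libraries. Brown fat markers summed to 55.8 CPM in WT PBS 5 and to 3.10 to 20.5 CPM in the others. Adm+/- PBS 6 did not share this, at 52.1 and 3.10 CPM. Epithelial markers, none of 12 of which passed, summed to 13630 to 15207 and 12714 to 15254 CPM. The part of these shifts in the values of Lmo3, Meox2 and the other factors was not tested.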

How the data were processed

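Strand-specific libraries of total lung RNA with rRNA depletion were sequenced from 12 mice. The deposited values are raw counts per gene, which the authors made with HISAT2 alignment to mm10 and featureCounts on Gencode models. Trim Galore is also named in the submitters' processing notes. The Gencode release and the strand setting of the counting are not given in the sources used here. Symbols and positions came from Gencode M21, which held 99.7% of the identifiers.

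Protein-coding genes with enough reads (filterByExpr of edgeR, with the 4 groups) were scaled by the trimmed mean of M values and fitted in 1 quasi-likelihood model of all 12 libraries, with 1 coefficient per group and 8 residual degrees of freedom (R 4.3.3, edgeR 4.0.16). The standard error is the log2 fold change divided by the square root of F. Adjusted p-values are Benjamini-Hochberg values over all genes tested. The fit was checked on simulated data. Non-coding neighbours were fitted with all annotated genes. Motifs were searched in RefSeq promoter windows of 300 bases (250 before and 50 after the start). The 12 pairs of libraries of 1 group all differed by more than counting noise, with chi-square values of 16.0 to 177 per degree of freedom. P-values measure the spread between single mice.

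The members and the gene lists were chosen with earlier results of these data known, and members are described without a test for LPS against PBS in Adm+/- mice and for the difference between the responses. Lmo3 is described without a test in every comparison. Genes named were all 10 members, from each list up to 4 genes with the highest mean CPM per kilobase plus Fgf10, Wnt2, Rspo2, Foxf2, Ldb1, Ldb2, Tcf3, Tcf4, Tcf12 and Cdkn1a, non-coding neighbours within 5 kb, and the 5 genes most like Lmo3 and each T-box gene, apart from 2 that are not reported here. Alternatives were DESeq2 (1.42.0), limma-voom (3.58.1), DESeq2's size factors, no filter on low counts, all annotated genes, the libraries of 1 comparison only, a test against a log2 fold of 0.5, and each library left out.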

Additional observations from a re-analysis of the deposited data

How the results depend on the processing

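Counting error and the spread of 3 mice per group limit these values, most of all for Lmo3 and Twist1, which had 2 to 84 and 27 to 117 counts in a library. No paired analysis was possible, because the labels used here give no litter or pairing of mice and their replicate numbers are serial library numbers. The call of Meox2 in WT mice held with each library left out and with every other alternative run, except in a fit of the WT libraries alone. Apart from Lmo3, which is given without a test, the only other member to pass in WT mice was Tbx2. It passed without WT PBS 3, without Adm+/- PBS 6 and with DESeq2. In Adm+/- mice, described by size alone, 5 members lay below -0.5, and 4 to 6 did under the alternatives. The number of non-coding neighbours past the threshold in WT mice was 0, and 0 to 1 with single libraries left out: Fendrr passed without WT PBS 3 and Gm48617 without WT LPS 11. Without WT PBS 5 and Adm+/- PBS 6 together, the WT value of Foxf1 was -0.00327, the Adm+/- value of Tbx4 was 0.0208 and the difference between genotypes of Tbx2 was -0.11. The Adm+/- value of Tbx4, near 0, was 0.00938 with DESeq2, 0.00930 with its size factors and 0.00262 with the libraries of the comparison only. With single libraries left out, the ranges that crossed 0 were -0.00342 to 0.144 for Foxf1 and -0.26 to 0.10 for Prrx1 in WT mice, -0.0716 to 0.0707 for Tbx4 in Adm+/- mice, and -0.29 to 0.28 for Tbx2 and -1.32 to 0.10 for Twist1 in the difference between genotypes. The cause of these shifts was not tested. Over all genes, 2791 passed in WT mice, 1443 without WT LPS 9, 1152 in a fit of the WT libraries alone and 1001 in a test against a log2 fold of 0.5. Likewise, Adm+/- and WT mice differed in LPS for 325 by edgeR, 803 by DESeq2, 133 in that last test, 548 without WT PBS 5 and Adm+/- PBS 6, and 81 (without Adm+/- LPS 1) to 573 (without WT PBS 5) with single libraries left out. Across the 20 alternatives, 8 to 10 of the members lay below 0 in WT mice and 7 to 8 in Adm+/- mice.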
